A study of Mus musculus with 18 samples.

Results

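The interleukin 4 signalling genes examined here were Il4ra, Il2rg, Jak1, Jak3, Stat6, Irs2, Fcer2a and Cish, 8 of the 21938 protein-coding genes on the autosomes and sex chromosomes in GENCODE M21, chosen by symbol as the receptor chains, kinases, transcription factor, adaptor and response genes of the cytokine. They were followed through 12 peak lists from ChIP-seq of mouse splenic B cells, 6 for the histone demethylase KDM2A and 6 for dimethylated lysine 36 of histone H3 (H3K36me2). WT cells came from Mir155-sufficient mice and KO cells from Mir155-deficient mice, both on a C57BL/6 J background and, per the study's methods, 6 to 25 weeks old. Cells of both genotypes were depleted of CD43+, Ter119+ and CD4+ cells and cultured for 2 days at 1% O2 and 5% CO2 with anti-CD40 (1 µg/ml), a F(ab')2 anti-IgM (5 µg/ml) and interleukin 4 (4 ng/ml). Each genotype had 3 libraries per antibody, of which replicate 1 was male and replicates 2 and 3 were female. Every library had thus been exposed to interleukin 4, and no group without the cytokine was compared. The deficiency was carried by the whole animal, and the cells were cultured splenic B cells rather than germinal centre B cells.

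Interleukin 4 binds IL-4Rα, the product of Il4ra, which in lymphocytes pairs with the common γ chain encoded by Il2rg. The chains carry the kinases JAK1 and JAK3, which phosphorylate the receptor, the transcription factor STAT6 and the adaptor IRS2. In B cells the pathway is known for inducing the low-affinity IgE receptor CD23, encoded by Fcer2a, and for promoting survival and class switching to IgG1 and IgE. CISH belongs to the SOCS family, whose members are induced by STAT factors and dampen cytokine receptors. KDM2A binds unmethylated CpG dinucleotides through its CXXC domain and removes methyl groups from H3K36, so its peaks tend to lie at CpG-rich promoters, whereas H3K36me2 usually lies in wide domains over genes and between them.

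A peak was a region that the authors' caller found above the local control, and its fold was their ratio of signal to that control. A promoter was the 2 kb on either side of any transcription start site (TSS) of a gene, and coverage was the percent of a gene or promoter lying under peaks. The KDM2A lists held 23372 to 29105 peaks over 0.770% to 1.11% of the genome in WT and 15387 to 21705 peaks over 0.433% to 0.715% in KO. The H3K36me2 lists covered 4.17% to 5.32% in WT, 3.63% in KO replicate 1, and 1.59% and 1.44% in KO replicates 2 and 3. The highest −log10 q in the H3K36me2 list of KO replicate 1 was 52.3, against 230.1 to 789.3 in the other H3K36me2 lists, so this library stood apart. Read depth was unknown, and its part in these differences was not tested. KDM2A promoter peaks lay at 6 to 8 of 8 B cell markers per list, at 1 to 3 of 6 T cell markers, at 0 or 1 of 5 myeloid markers and at 0 or 1 of 3 erythroid markers. Among these, Cd79a, Cd79b, Pax5 and Cd22 had such a peak in all 6 lists and Cd3e, Cd3g and Cd4 in none, whereas Lck, a T cell kinase, had it in all 6. The promoter of Mir155hg, the host transcript of miR-155, held a KDM2A peak in all 6 lists with a fold of 2.60 to 3.68, and peak lists could not check the genotype labels.

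The promoter sequences are shown because KDM2A recognises CpG and the members differed widely in it. RefSeq promoters of GRCm38.p6, 250 bases before to 50 bases after a gene's start, were matched for 8 of 8 members and compared with 16522 promoters of protein-coding genes, whose median was 14 CpG in 300 bases. The promoters of Fcer2a and Il2rg held 3 CpG each, fewer than most, and 18.0% of all promoters held fewer. Stat6 held 8 CpG, Jak3 9, Cish 11, Il4ra 25, Jak1 29 and Irs2 41, the last more than 95.6% of promoters. KDM2A peaks touched this 300-base window in 2 of 6 lists at Fcer2a and at Il2rg, in 5 of 6 at Stat6, Jak3, Cish, Il4ra and Irs2, and in 6 of 6 at Jak1. This ordering is a description over 8 promoters. The stretches upstream of the start that lie outside annotated exons of the gene are given for 4 members, 5′ to 3′ on the strand of the gene with CpG in capitals, namely chr8:3694176-3694424 (−) for Fcer2a, chrX:101268256-101268505 (−) for Il2rg, chr10:127642736-127642985 (+) for Stat6 and chr8:11008930-11009179 (−) for Irs2.
Fcer2a: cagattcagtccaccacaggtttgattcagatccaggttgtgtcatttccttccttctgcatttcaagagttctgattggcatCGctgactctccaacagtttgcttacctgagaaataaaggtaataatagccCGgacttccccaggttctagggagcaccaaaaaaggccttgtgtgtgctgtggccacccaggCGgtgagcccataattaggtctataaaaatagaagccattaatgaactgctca
Il2rg: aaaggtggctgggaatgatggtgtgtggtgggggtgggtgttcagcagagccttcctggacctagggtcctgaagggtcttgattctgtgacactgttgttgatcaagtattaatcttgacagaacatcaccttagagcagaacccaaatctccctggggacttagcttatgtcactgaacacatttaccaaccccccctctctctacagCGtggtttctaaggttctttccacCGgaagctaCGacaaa
Stat6: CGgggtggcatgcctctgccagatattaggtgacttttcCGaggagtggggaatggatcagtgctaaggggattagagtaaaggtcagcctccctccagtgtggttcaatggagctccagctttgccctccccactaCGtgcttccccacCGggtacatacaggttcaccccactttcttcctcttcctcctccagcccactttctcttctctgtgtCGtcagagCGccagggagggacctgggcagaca
Irs2: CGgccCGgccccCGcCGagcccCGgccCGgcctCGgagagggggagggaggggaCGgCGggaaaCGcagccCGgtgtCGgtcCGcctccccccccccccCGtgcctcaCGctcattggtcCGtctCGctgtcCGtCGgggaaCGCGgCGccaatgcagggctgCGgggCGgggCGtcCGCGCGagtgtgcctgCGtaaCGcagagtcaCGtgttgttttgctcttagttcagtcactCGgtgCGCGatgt

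STAT factors bind palindromes of TTC and GAA, and both spacings were searched in the 300-base windows, where a match on either strand reads the same. TTCNNNNGAA, the spacing STAT6 favours, was in 0 of 8 members and in 6.25% of all promoters. TTCNNNGAA was in Cish alone and in 7.89% of all promoters. Cish held 2 matches within 20 bases at chr9:107296659-107296678 (+), starting at base 1 of the RefSeq transcript, shown with the matches in capitals.
Cish: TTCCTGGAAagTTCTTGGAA
These bases lay under a KDM2A peak in all 3 WT lists and in KO replicates 1 and 3, and under none in KO replicate 2.

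KDM2A peaks marked the promoters of these genes in most lists of both genotypes. A promoter peak was present in all 6 lists at Il4ra, Jak1, Jak3, Stat6 and Irs2, 5 of 8 members, against 26.4% of all protein-coding genes. Cish lacked it in KO replicate 2 only. Il2rg had it in WT replicates 2 and 3 and KO replicates 2 and 3 and lacked it in both male lists. Il2rg is on the X chromosome, and peaks on X made up a smaller share of male than of female lists (0.249% and 0.295% of KDM2A peaks against 0.910% to 0.991%), so at this gene sex and replicate cannot be told apart. Fcer2a had a promoter peak in 3 of 3 WT lists and 0 of 3 KO lists, a pattern found at 1.50% of the 11571 genes with a promoter peak in at least 2 lists, whereas the reverse pattern was found at 0.199% of them.

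**Figure D1:**
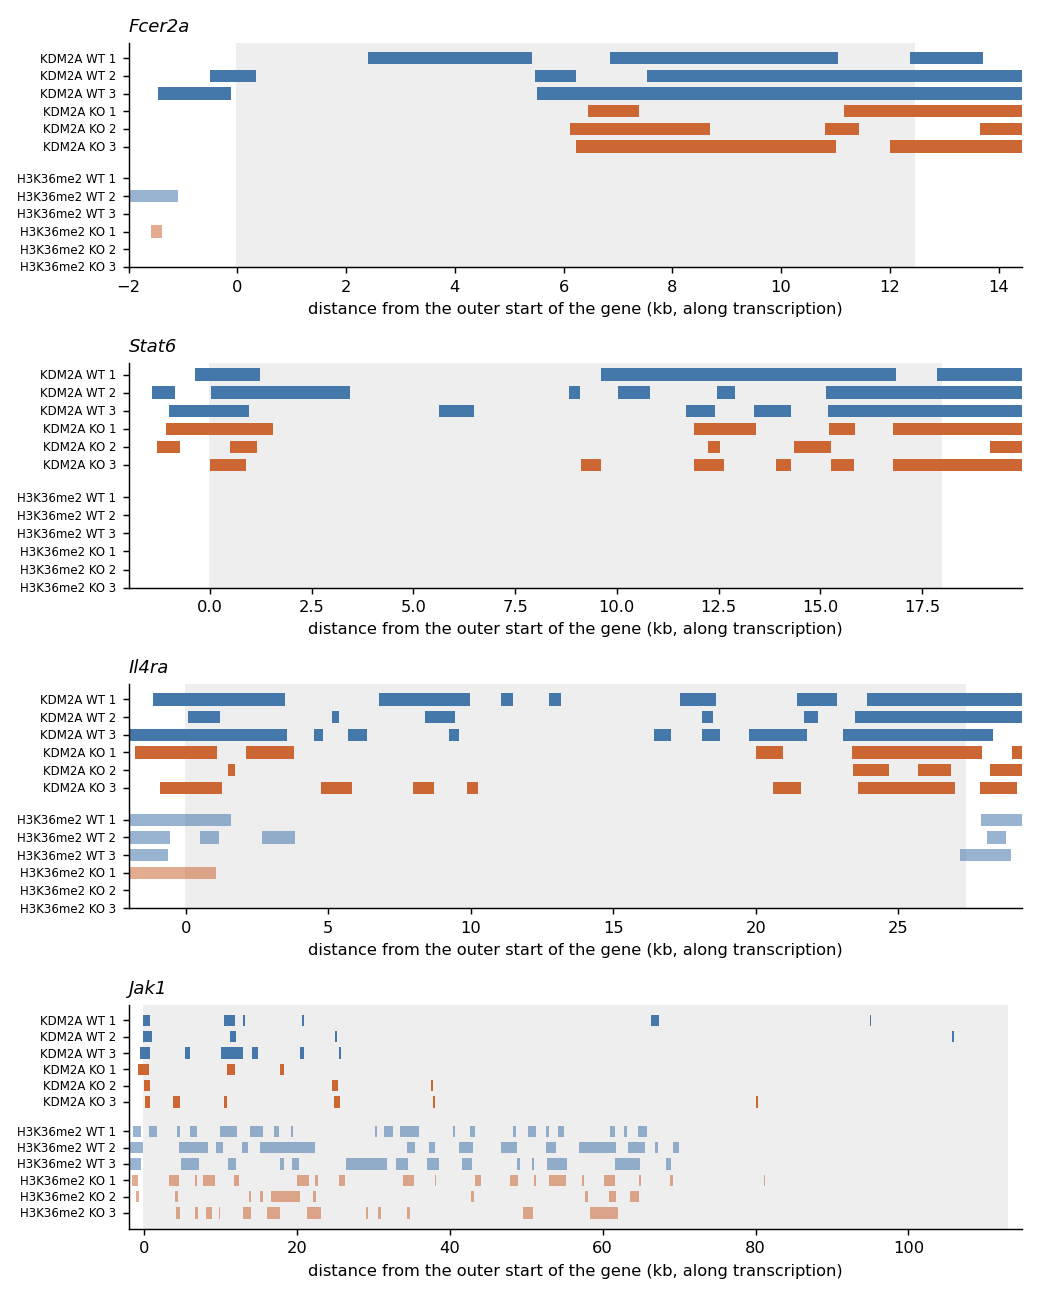
Peaks of KDM2A and H3K36me2 in each of the 12 lists along Fcer2a, Stat6, Il4ra and Jak1, with distance from the outer start of the gene (kb) on the x axis, lists on the y axis, WT in blue, KO in orange and the gene shaded. Only WT lists held KDM2A peaks over the 5′ part of Fcer2a, KDM2A lay at both ends of Stat6 and Il4ra, and H3K36me2 within Jak1 lay almost wholly in the first 71.2 kb after exon 1, with further peaks upstream of the start in 5 of 6 lists.

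The height of these promoter peaks overlapped between genotypes at the 5 members with a peak in every list. At Il4ra the strongest peaks had folds of 2.85, 2.93 and 2.78 in WT and 2.78, 2.66 and 2.79 in KO, and the groups overlapped. Jak1 gave 3.26, 3.53 and 3.02 in WT and 2.92, 3.12 and 2.89 in KO, where the last value came from a peak at an internal TSS (chr4:101184936-101185262) and the peak at the outer start of that list had a fold of 2.70. Jak3, whose kinase attaches to the γ chain, gave 3.00, 3.96 and 3.25 in WT and 3.06, 3.47 and 3.43 in KO. Irs2, whose product links the receptor to PI3 kinase, gave 2.62, 2.76 and 2.78 in WT and 2.66, 3.02 and 2.99 in KO. In each of these genes at least 1 KO list lay among the WT lists. Stat6 gave 3.86, 3.63 and 3.12 in WT and 3.26, 2.70 and 3.37 in KO, but its windows hold internal TSS and reach its 3′ end, where several of these highest peaks lay. On the log2 scale after centring each list, the KO minus WT difference was 0.01 for Il4ra, −0.07 for Jak1, 0.03 for Jak3, −0.12 for Stat6 and 0.15 for Irs2 (SE 0.09, 0.11, 0.12, 0.13 and 0.09). None of the 5 passed limma with Benjamini-Hochberg adjustment over 5786 genes (adjusted p from 0.91 to 1.00), and 0% of those genes did, 299 of them having an unadjusted p under 0.05. Restricting Stat6 to the starts of coding transcripts turned its difference to 0.05. Il2rg, Fcer2a and Cish had no peak in some lists and were not in this fit.

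**Figure D2:**
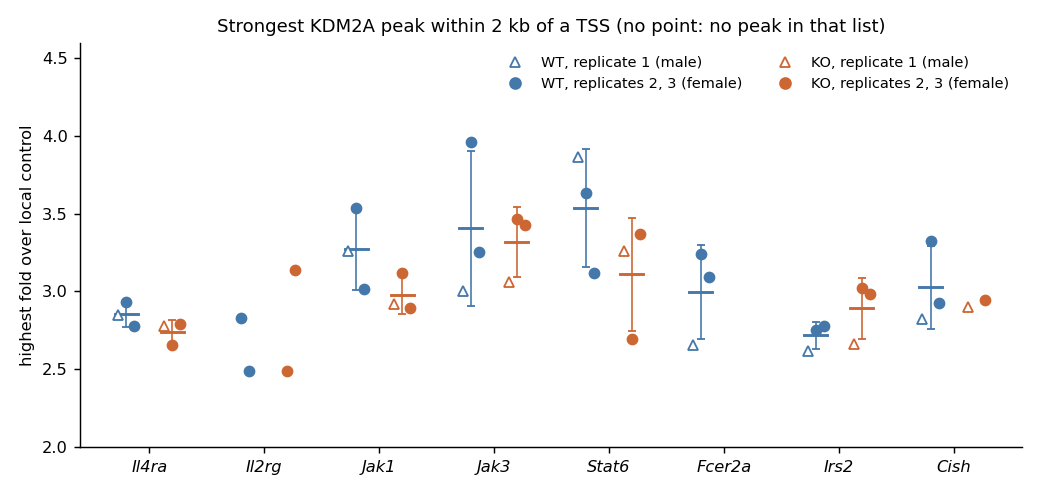
Highest fold over local control of a KDM2A peak within 2 kb of a TSS for each gene (x axis) and list (points, WT in blue, KO in orange, open triangles for the male replicate), with mean ± SD where all 3 lists of a genotype had a peak. WT and KO points overlap at the 5 genes with 6 values, and Fcer2a has none in KO.

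The extent of KDM2A over whole genes set the members apart from most genes. KDM2A peaks covered at least 25% of the gene in all 3 WT lists at Il4ra, Jak3, Stat6, Fcer2a and Cish, 5 of 8 members, a level reached by 4.28% of all genes. No member reached it in all 3 KO lists, against 2.03% of all genes. The mean over WT lists was above that of 95.7% of genes for Il4ra, 96.1% for Il2rg, 96.7% for Jak3, 95.8% for Stat6, 97.1% for Fcer2a and 98.0% for Cish, but of 73.0% for Jak1 and 78.6% for Irs2. In KO these ranks were 94.9%, 81.3%, 95.4%, 94.5%, 96.2%, 95.7%, 73.5% and 82.2% in the same order. The rank of Il2rg was thus lower in KO and that of the others was within 4 points of WT. This threshold and the measure were chosen after the data had been seen.

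In the receptor genes, KDM2A covered 50.0%, 26.3% and 45.4% of Il4ra (chr7:125552120-125579474, 27.4 kb, + strand) in WT and 28.2%, 9.66% and 28.7% in KO. KO replicates 1 and 3 lay above WT replicate 2, so the groups overlapped. The most constant site was not the promoter but exon 11, the last exon (chr7:125575524-125579474), which was covered to 87.2%, 98.2% and 100% in WT and to 100%, 61.0% and 86.0% in KO. A stretch of 1154 bp in it (chr7:125577820-125578973) was under peaks in all 6 lists. Away from the promoter windows, over 25.2 kb, mean coverage of Il4ra reached 36.8% ± 11.3 among WT lists and 20.6% ± 9.55 among KO lists (SD, 3 lists each). Il2rg (chrX:101264378-101268255, 3.88 kb, − strand) was covered to 14.4%, 79.4% and 40.4% in WT and to 0%, 5.62% and 6.55% in KO, and each KO list was below each WT list. GENCODE places Gm20489 over the whole of Il2rg on the same strand, so these peaks cannot be assigned to either gene.

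Among the kinases, Jak1 (chr4:101152367-101265282, 112.9 kb, − strand) had 3.57%, 2.09% and 5.32% of its length under KDM2A in WT and 1.97%, 1.61% and 2.85% in KO, with overlapping groups. Its peak at the outer start was 710 to 1502 bp wide, and 599 bp at the junction of exon 1 and intron 1 (chr4:101264612-101265210) were under peaks in all 6 lists. Most of the KDM2A bases of Jak1 lay away from the promoter windows in each list of both genotypes. Of those 102.8 kb, 3.14%, 1.32% and 5.11% were under peaks in WT and 1.51%, 0.975% and 2.12% in KO. Jak3 (chr8:71676296-71690575, 14.3 kb, + strand) was covered to 83.0%, 40.4% and 25.3% in WT and to 26.2%, 10.2% and 36.5% in KO. WT replicate 1 held a single KDM2A peak of 11293 bp there, from before the start to most of the way along the gene, and without that list the groups were intermixed. The 3′ part of Jak3 overlaps Insl3 on the same strand.

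The factor STAT6 is the main transcriptional arm of the pathway. Its gene Stat6 (chr10:127642986-127660957, 18.0 kb, + strand) was covered by KDM2A to 47.8%, 43.1% and 34.5% in WT and to 27.3%, 10.5% and 23.4% in KO, and the groups did not overlap. KDM2A lay within 2 kb of the outer start in all 6 lists and within 2 kb of the gene's end in all 6 lists. A stretch of 924 bp near the end (chr10:127658842-127659765) was under peaks in all 3 WT lists and in no KO list. In KO replicates 1 and 3 it was the gap between peaks lying close on both sides. Such bases also amounted to 695 bp in Il4ra, 276 bp in Jak3 and 60 bp in Jak1, and to 0 bp in the other members. Their share over all genes was not counted. The gene ends against Nab2 on the other strand, so the peaks that run past the end may belong to either gene.

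Of the response genes, Fcer2a (chr8:3681737-3694175, 12.4 kb, − strand) was covered to 58.6%, 48.2% and 55.7% in WT and to 18.0%, 25.6% and 42.1% in KO, again without overlap. The 3′ part held KDM2A in every list, with 3517 bp (chr8:3683124-3686640) under peaks in all 3 WT lists and 944 bp (chr8:3686791-3687734) under peaks in all 3 KO lists. The 5′ part held peaks in WT only, although not at 1 shared place. WT replicate 1 had a peak at chr8:3688748-3691768 over internal starts (fold 2.66), and WT replicates 2 and 3 had peaks at chr8:3693827-3694677 (fold 3.24) and chr8:3694293-3695628 (fold 2.81) at the outer start, where the printed CpG-poor sequence lies. With peaks of −log10 q of at least 2, promoter peaks remained in 2 WT lists and 0 KO lists. Fcer2a promoter coverage reached 38.8%, 14.9% and 20.7% in WT and 0% in each KO list (exact permutation test, p = 0.1). The limma difference was −24.8 points (SE 6.44, adjusted p = 0.43). Fcer2a entered that fit through its WT lists alone, so the fit restates the pattern of peaks and adds no separate evidence. The CISH gene Cish (chr9:107296026-107302784, 6.76 kb, + strand) was covered to 76.9%, 82.6% and 34.7% in WT and to 42.8%, 0% and 35.1% in KO. Its 1105 bp at chr9:107296040-107297144 were under peaks in all 3 WT lists, and Gm17040 and Gm17041 overlap it on the other strand. The adaptor gene Irs2 (chr8:10984681-11008458, 23.8 kb, − strand) was covered to 7.26%, 2.88% and 6.63% in WT and to 2.06%, 2.64% and 8.68% in KO. These peaks lay at the start, which it shares with 9530052E02Rik on the other strand, except in WT replicate 2, where 448 of 685 bp were a peak in an intron (chr8:10996134-10996581).

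**Figure D3:**
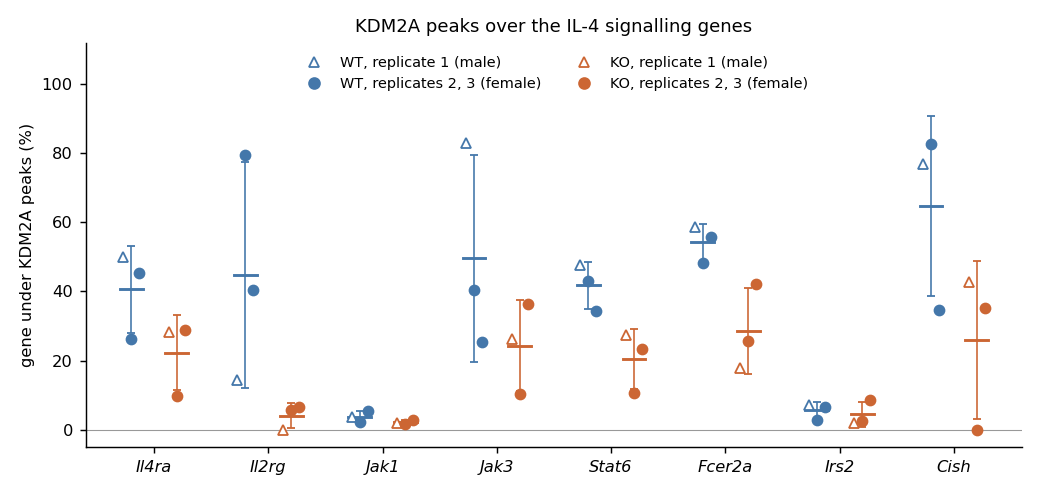
Percent of each gene under KDM2A peaks (y axis) for each list (points, WT in blue, KO in orange, open triangles for the male replicate), with mean ± SD of 3 lists. Il2rg, Stat6 and Fcer2a are the genes where each KO point lies below each WT point.

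KDM2A coverage was lower in each KO list than in each WT list at Il2rg, Stat6 and Fcer2a, 3 of 8 members, and at 15.0% of 12633 genes tested. The opposite order was found at 0 members and at 1.18% of genes. The exact two-sided permutation test gave p = 0.1 for each of the 3, the smallest p that 3 against 3 lists allow, and 0.2 to 0.8 for the others. Mean WT and KO coverage stood at 44.7% ± 32.7 and 4.06% ± 3.54 for Il2rg, 41.8% ± 6.75 and 20.4% ± 8.78 for Stat6, and 54.2% ± 5.38 and 28.5% ± 12.3 for Fcer2a (SD, n = 3 each). The mean of Il2rg rested in large part on WT replicate 2, without which its difference was −23.4 points in place of −40.7, and with stricter peaks it was −5.71. In limma, 0 of 8 members had an adjusted p under 0.05 (0.52 to 0.88) and 1, Il2rg, an unadjusted p under it (0.048). Over all genes 0% passed the adjusted threshold and 1068 had an unadjusted p under 0.05. The median difference was −23.3 points over the members and −0.79 over all genes tested, which started from different levels, with a median coverage of 34.6% to 48.9% over the members and 0.020% to 0.26% over all protein-coding genes in the WT lists. The count of 3 became 5 without WT replicate 2, without WT replicate 3 or without KO replicate 3, while the share of all genes became 26.9%, 24.8% and 26.5%. For coverage of promoters, Stat6 and Fcer2a, 2 of 8 members, were lower in each KO list, as were 13.3% of 11571 genes, of which 0% passed limma's adjusted threshold and 1026 had an unadjusted p under 0.05. The promoter windows span 14339 bp at Stat6, a gene of 17972 bp, and 7786 bp at Fcer2a, a gene of 12439 bp. Coverage of the promoter and of the gene thus share bases there. In bulk chromatin, a peak lost from fewer cells and a peak weaker in every cell cannot be told apart.

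The KO lists covered less of the genome, and relative to that extent the groups overlapped at 7 of 8 members. After each value was divided by the percent of the genome under KDM2A peaks in its list, Stat6 stood at 43.1, 56.0 and 39.3 times the genome level in WT and at 55.4, 24.3 and 32.8 in KO. Fcer2a stood at 52.9, 62.6 and 63.5 in WT and at 36.5, 59.0 and 58.8 in KO. In both genes the groups then overlapped in range, Fcer2a through WT replicate 1 alone (exact permutation test, p = 0.4 and 0.5). Il4ra gave 45.2, 34.2 and 51.8 in WT and 57.3, 22.3 and 40.1 in KO. Il2rg remained lower, at 13.0, 103.1 and 46.1 in WT and 0, 13.0 and 9.16 in KO, although WT replicate 1 and KO replicate 2 were nearly equal. The count of members below in each KO list was then 1 of 8, against 5.41% of genes.

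**Figure D4:**
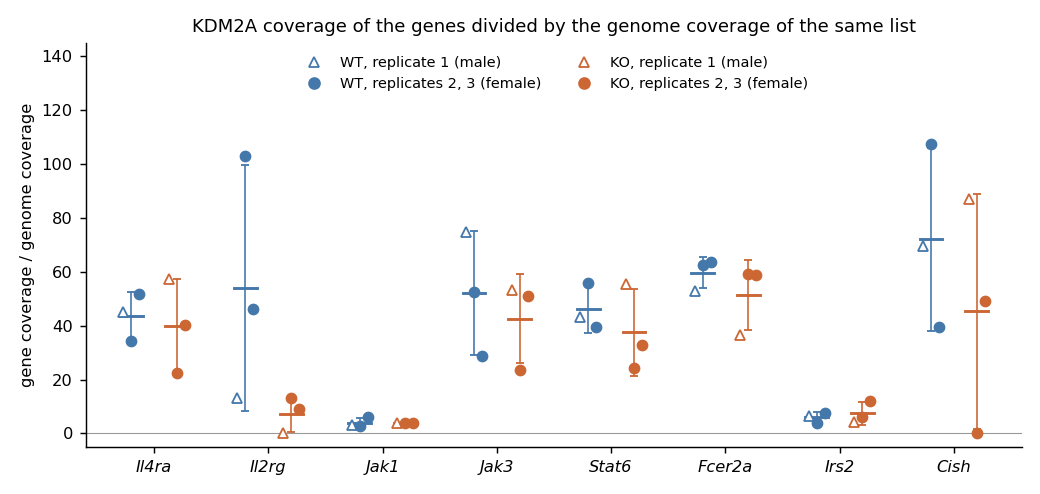
KDM2A coverage of each gene divided by the genome coverage of the same list (y axis, a ratio) for each list (points, WT in blue, KO in orange, open triangles for the male replicate), with mean ± SD of 3 lists. The separation at Stat6 and Fcer2a seen in plain coverage is not seen on this scale.

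KDM2A lay at the end of the gene in some members. A peak lay within 2 kb of the gene's end in all 6 lists at Il4ra, Stat6, Fcer2a and Cish, 4 of 8 members, against 5.67% of all genes. It lay there in 5 lists at Il2rg and Jak3 and in 0 at Jak1 and Irs2. Within 2 kb of the outer start, a peak lay in all 6 lists at Il4ra, Jak1, Jak3, Stat6 and Irs2, against 23.5% of all genes. Short genes bring both windows close together, and Il2rg, at 3.88 kb, is shorter than either window.

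H3K36me2 covered little of most genes, with a median coverage of 0% over all protein-coding genes in each list, and of the members Jak1 alone was covered widely. Stat6, Fcer2a and Il2rg had no H3K36me2 peak over the gene in any of the 6 lists, 3 of 8 members against 41.8% of all protein-coding genes. Within 2 kb of Fcer2a, H3K36me2 peaks lay only upstream of the start, in WT replicate 2 and KO replicate 1. Irs2 and Cish had it in WT replicate 2 alone, over 5.16% and 11.0% of the gene. Jak3 had it in WT replicates 1 and 3 (6.76% and 5.17%) and in no KO list. Il4ra was covered to 5.84%, 6.72% and 0.669% in WT, to 3.88% in KO replicate 1 and to 0% in KO replicates 2 and 3, so that its KO value rested on the library that stood apart.

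Jak1 was the member with wide H3K36me2, at 14.7%, 24.7% and 19.3% of the gene in WT and 13.3%, 7.02% and 11.2% in KO. Each KO list was below each WT list, with means of 19.6% ± 5.04 and 10.5% ± 3.21 (SD, n = 3 each, exact permutation test, p = 0.1). Of 84 H3K36me2 peaks over Jak1 in the 6 lists, 83 were centred in intron 1 (chr4:101193864-101265041), a stretch of 71.2 kb. Peaks covered that intron to 23.3%, 39.2% and 30.6% in WT and 20.8%, 11.1% and 17.7% in KO. The difference over the gene was −9.06 points, and it ranged from −11.5 without WT replicate 1 to −6.47 without WT replicate 2 when 1 library was left out, with −10.5 without KO replicate 1. It was −4.75 with equal peak numbers and −1.88 with stricter peaks. Divided by genome coverage, Jak1 stood at 3.51, 4.64 and 3.68 in WT and at 3.68, 4.42 and 7.72 in KO, and the difference reversed to 1.33.

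**Figure D5:**
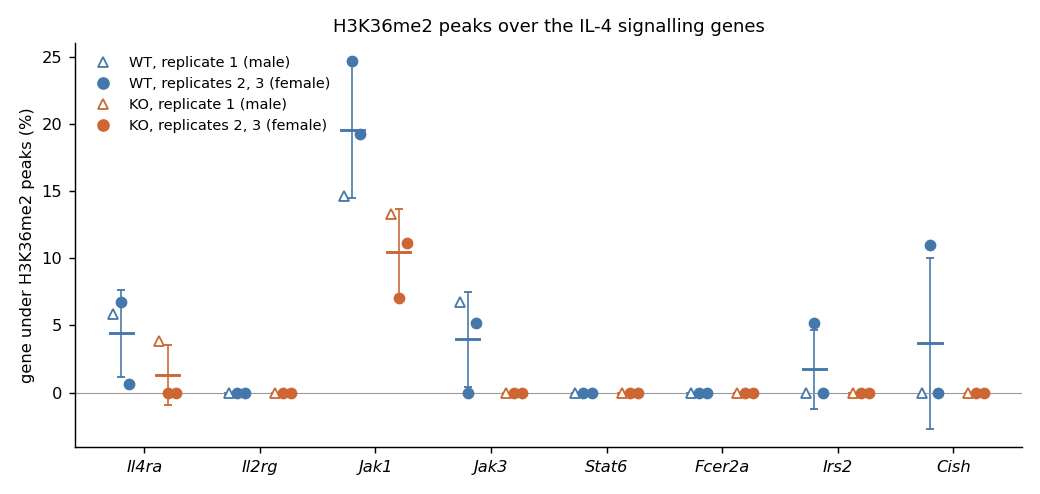
Percent of each gene under H3K36me2 peaks (y axis) for each list (points, WT in blue, KO in orange, open triangles for the male replicate), with mean ± SD of 3 lists. Jak1 is the highest in all lists, and Il2rg, Stat6 and Fcer2a are at 0 in all lists.

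Only Jak1, Il4ra and Jak3 had H3K36me2 over the gene in at least 2 lists and entered that fit. Jak1, 1 of these 3, was lower in each KO list, as were 28.1% of 10351 genes. In limma, 0 of the 3 passed (adjusted p 0.24 to 0.33), as did 0% of all genes, with 2153 at an unadjusted p under 0.05. Jak3 entered this fit through WT replicates 1 and 3 alone, so its limma result restates that pattern. Its groups overlapped (exact permutation test, p = 0.4). Around the TSS, Jak1 and Jak3, 2 of 5 members tested, were lower in each KO list, as were 23.6% of 10360 genes, of which 0% passed limma's adjusted threshold and 1667 had an unadjusted p under 0.05. Jak3 promoter coverage reached 35.0%, 27.8% and 40.5% in WT and 27.0%, 0% and 11.3% in KO. At Il4ra it reached 86.3%, 51.0% and 33.2% in WT and 73.4%, 0% and 0% in KO.

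The share of H3K36me2 bases that also lay under KDM2A peaks differed between members, as did the extent of KDM2A itself. Within Il4ra, 1598 of 1598 bp of H3K36me2 in WT replicate 1, 661 of 1839 bp in WT replicate 2, 183 of 183 bp in WT replicate 3 and 1061 of 1061 bp in KO replicate 1 were also under a KDM2A peak of the same replicate. Within Jak1 these were 1537 of 16549, 0 of 27915 and 1711 of 21791 bp in WT and 13 of 15062, 0 of 7926 and 407 of 12593 bp in KO. At Jak3 they were 966 of 966 bp in WT replicate 1 and 578 of 738 bp in WT replicate 3, and in WT replicate 2 they were 744 of 744 bp at Cish and 208 of 1227 bp at Irs2. Counted against the KDM2A bases, the shared bases were 1598 of 13687, 661 of 7206 and 183 of 12415 bp of KDM2A at Il4ra in WT, and 1537 of 4026, 0 of 2360 and 1711 of 6011 bp at Jak1, so that WT replicates 1 and 3 had the larger share at Jak1. Among 5785 other protein-coding genes with a KDM2A promoter peak in the same 6 lists, the 3 whose H3K36me2 coverage was nearest to that of Il4ra over 6 lists were Prkcd, Trim11 and Hook2, at mean absolute differences of 0.455, 0.468 and 0.674 points.

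The wider pathway was read from 46 further genes. KDM2A promoter peaks were in all 6 lists at 30 of them, against 26.4% of all genes, namely at both other kinases Jak2 and Tyk2, 5 of 6 STAT genes, 9 of 11 adaptor and PI3 kinase genes, 11 of 12 inhibitors, 2 of 5 targets, 1 of 8 receptors and 0 of 2 ligands. Il4, Il13ra1, Il13ra2 and Il7r had no KDM2A peak at the promoter in any list, and neither had Ccl22. Wide KDM2A coverage, of at least 25% of the gene in all 3 WT lists, was found at 7 of 46, against 4.28% of all genes, and these were Stat5a, Dok1, Akt1, Socs1, Socs3, Ptpn6 and Il4i1. Dok1, Socs3 and Ptpn6 also reached it in all 3 KO lists, as did 2.03% of all genes. Genes named for wide coverage or for the lack of a promoter peak were chosen after their values were seen. Socs1, an inhibitor of JAK kinases, was covered to 94.6%, 100% and 51.3% in WT and to 91.8%, 24.4% and 43.9% in KO. Stat5a was covered to 79.5%, 68.2% and 60.8% in WT and to 50.4%, 24.1% and 50.5% in KO, without overlap. Coverage was below in each KO list at 9 of 40 pathway genes tested and above at 0, against 15.0% and 1.18% of all genes tested.

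None of the further pathway genes passed limma in any of the measures, with 0 called in either direction of 30 tested for KDM2A fold, 40 for KDM2A coverage of the gene, 38 for KDM2A coverage of the promoter, 38 for H3K36me2 over the gene and 40 for H3K36me2 at the promoter. The numbers with an unadjusted p under 0.05 were 1, 4, 4, 8 and 7, against 5.17%, 8.45%, 8.87%, 20.8% and 16.1% of all genes tested in the same order. For KDM2A promoter fold, the lowest differences were those of Jak2, which also signals for other cytokine receptors, and Ptpn11, which encodes the phosphatase SHP2. Jak2 gave 3.33, 3.49 and 3.99 in WT and 3.06, 2.75 and 2.55 in KO, a log2 difference of −0.31 (SE 0.12, adjusted p = 0.91 in limma). Ptpn11 gave −0.12, and the highest were Akt1 at 0.16 and Dok1 at 0.15. For H3K36me2 over the gene, the lowest were Dok2 (18.7%, 36.1% and 36.2% in WT and 11.8%, 0% and 0% in KO) and Socs5 (26.3%, 25.6% and 45.7% in WT and 19.7%, 6.61% and 3.22% in KO), with adjusted p of 0.24 in limma for both. The highest, Ccl22 and Il9r, rested on KO replicate 1, where they stood at 26.2% and 24.2% with 0% in both other KO lists. H3K36me2 was below in each KO list at 12 of 38 pathway genes, against the 28.1% of all genes.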

How the data were processed

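Per the methods and the submitters' processing notes, the authors ran nf-core/chipseq, with BWA for alignment (GRCm38) and MACS2 for broad peaks, giving 1 deposited list per library without pooling. The deposited fold is a ratio over local control, and −log10 p and −log10 q are given per peak, with no read counts, so depth is unknown. The 6 input samples of 18 had no list and were not analysed here on their own. Values computed here were promoter fold (highest peak, log2, centred per list) and coverage of promoters (2 kb, overlap of at least 1 bp) and genes, with GENCODE M21. Genotypes were compared with limma 3.58.1 in R 4.3.3 (trend, Benjamini-Hochberg, threshold 0.05, coverage for genes with peaks in at least 2 lists), tested on simulated data, and with two-sided exact permutation tests. By sex, replicate 1 of each genotype came from a different animal than replicates 2 and 3. Labels do not say that replicates 2 and 3 came from separate animals. The p-values thus measure the spread between these samples, part of which may be technical. The 8 members and the lists were chosen with earlier results of these data known. Named pathway genes were those past the threshold and the 2 largest differences each way for KDM2A fold and H3K36me2 over the gene. Other pathway genes, such as Socs1 and Stat5a, were named after their values were seen. KDM2A coverage of genes was added after seeing the data. Alternatives were stricter peaks, equal peak numbers, other windows, centring and scaling, female libraries, a replicate block and leaving out each library. Python 3.11.15, numpy 2.4.6 and pandas 2.3.3 were used. Some genes of the lists are not reported here by name.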

Additional observations from a re-analysis of the deposited data

Results flagged for a closer look

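Among 29 member values examined in the male pair and in the female libraries, 2 had a KO minus WT difference of one sign in the male pair and of the other in each pairing of female libraries. The centred log2 KDM2A promoter fold of Il4ra gave −0.032 in the male pair and 0.013 to 0.035 in the female pairings. KDM2A promoter coverage of Jak1 gave 5.20 points in the male pair and −3.02 to −0.24 points in the female pairings. There was 1 male library per genotype, and neither difference was tested.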

How the results depend on the processing

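The number of genes past limma's adjusted threshold stayed at 0 for KDM2A promoter fold, KDM2A promoter coverage and H3K36me2 coverage of genes under every alternative run. It was 5 for H3K36me2 promoter coverage with stricter peaks, and for KDM2A coverage of genes it ranged from 0 to 8 when 1 library was left out, with 8 without KO replicate 1 and 4 without KO replicate 2. No member passed under the alternatives run for KDM2A fold, KDM2A coverage of genes and H3K36me2 coverage of genes. The members lower in each KO list (3 of 8) numbered 1 with equal peak numbers (7.60% of all genes), 1 relative to genome share (5.41%), 1 for genes without their promoter windows (14.4%), 2 with stricter peaks (14.4%), and from 3 to 5 when 1 library was left out. Same-numbered WT and KO lists did not deviate together (correlations of −0.08 to 0.08), and with a replicate block 0 genes passed in each of the 5 measures. Signs reversed in 16 of 207 alternative values of members. For KDM2A fold, Il4ra became −0.057 without centring and −14.4 as percentile rank, Jak3 −0.030 and −1.52, and Stat6 0.0507 with coding transcripts and 0.0511 with peaks lying mostly inside the windows. Leaving out 1 library gave −0.0072 to 0.030 for Il4ra, the same settings giving −0.029 to 0.11 for Jak3. For KDM2A coverage, Irs2 became 0.904 in female libraries, 1.51 relative to genome share, 1.56 with stricter peaks, and −3.24 to 0.069 when 1 library was left out. Jak1 H3K36me2 coverage became 1.33 relative to genome share. The causes were not tested. Without read depth, a missing peak cannot be told apart from one below the caller's threshold.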
